A study of Mus musculus with 12 samples.

Results

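The response of wild-type (WT) mouse macrophages to culture with myeloma cells was read from 6 of the 12 arrays of a series on the fatty acid receptor Cd36. The 3 arrays titled CD36-WT TAMs carried RNA of primary macrophages after 72 h beside 5TGM1, a line of mouse myeloma cells, and the 3 titled CD36-WT MΦs carried RNA of WT primary macrophages without that line. They are called TAMs (tumour-associated macrophages) and macrophages here. The other 6 arrays held the same cultures of Cd36 knockout (KO) cells, 3 of KO macrophages and 3 of KO TAMs, and serve below as a second co-culture comparison that shares no array with the first. The culture medium was RPMI, with fetal bovine serum at 10% and antibiotics. A time in culture is given for TAMs only, and the organ the macrophages came from, the way the myeloma cells were taken off, and whether replicates were separate animals or cultures are not stated in the labels. The difference between TAMs and macrophages may thus include time in culture, and all p-values rest on the variation among these arrays, part or all of which may be technical.

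Macrophages engulf dying cells and debris, break the cargo down in lysosomes, and recycle its lipids, amino acids and iron. They also recruit other leukocytes with chemokines and present antigen. In multiple myeloma, a cancer of plasma cells in the bone marrow, macrophages lie among the tumour cells and are known as a source of growth, survival and angiogenic signals.

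Expression was tested for 22180 genes, each read by the probe set with the highest mean among those annotated to that gene alone. Levels are log2 intensities, differences are TAM minus macrophage on the log2 scale ± the standard error of the limma fit, and values of single arrays are given in the order 1, 2, 3. A gene rose or fell where its p from limma was under 0.05 after Benjamini-Hochberg adjustment across all tested genes. Array medians lay between 31.3 and 33.3 on the linear scale. The number of arrays, 3 per group, limits the precision, and the smallest two-sided exact permutation p that 3 against 3 arrays can give is 0.1, which Fabp4, Slc40a1 and Spn reached.

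The arrays carried the macrophage label's defining genes. Cd68, a macrophage lysosomal glycoprotein, read 12.19, 12.25 and 12.19 on macrophage arrays and 13.07, 12.93 and 13.06 on TAM arrays, and Adgre1 (F4/80) read 12.75, 12.83 and 12.78 against 12.16, 12.29 and 12.34. The mean over the 15 measured macrophage markers was 11.57 to 11.59 in macrophages and 11.46 to 11.54 in TAMs. That mean joins members that moved both ways. Of the 15, 3 were called higher (20%, against 5.89% of all genes) and 4 lower (26.7%, against 5.66%). The 20 measured myeloma and plasma cell markers averaged 6.53 to 6.56 and 6.60 to 6.71. The defining plasma cell gene Jchain read 3.59 to 3.84 on macrophage arrays and 3.48 to 3.75 on TAM arrays, and Tnfrsf17 read 3.60 to 3.71 and 3.42 to 3.70. Of the 20 markers 2 were called higher (10%) and 2 lower (10%). Tent5c, a regulator of RNA stability in plasma cells, rose by 1.84 ± 0.28, and Derl3 fell by 0.89 ± 0.15. Ccnd2 (1.5 ± 0.35) lost its call without macrophage array 1 or 3, and Xbp1 (-0.33 ± 0.09) without any one of the WT arrays but WT TAM 1. The part of myeloma RNA in the results was not tested. In RNA of whole cultures, fewer cells of a type and less RNA per cell cannot be told apart.

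WT TAM 2 stood apart from its group. It lay more than 1 from the mean of the other 2 TAM arrays in 414 genes, against 113 for WT TAM 1, 56 for WT TAM 3 and 4 to 6 for the macrophage arrays. Its 19 measured fibroblast and stromal markers averaged 8.66, against 7.52 and 7.64 on the other TAM arrays and 7.18 to 7.32 on macrophage arrays, and its 19 sterol synthesis genes averaged 7.39 against 9.49 and 9.22. Among the genes that moved at least 4-fold, it was the TAM array nearest to the macrophage mean in 26 of 34 that rose and 49 of 61 that fell. Without WT TAM 2 the number of called genes was 2671, and 2094 of the 2561 genes called with it (81.8%) were among them.

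Co-culture was accompanied by changes in 2561 genes, 11.5% of those tested. Of these, 1306 rose (5.89%) and 1255 fell (5.66%), and in 2556 of them the 3 and 3 arrays did not overlap, which held for 30.1% of all genes. When only genes above the median level were fitted, 2972 were called, with 2319 of the 2561 among them. Shares of list members given below stand against the 5.89% higher and 5.66% lower of all genes. That background has no filter on level, so it lies below the share called among genes above the median level. Most changes were small. The median difference was 0.60 among risen and -0.58 among fallen genes, against 0.01 over all genes, and 1053 and 997 of them moved less than 2-fold. The large changes leaned to the lower side, with 34 risen and 61 fallen genes at 4-fold or more and 7 and 17 at 8-fold or more. The number called without 1 array fell to 1475, 1619 and 1514 without macrophage arrays 1, 2 and 3. Genes named below as risen or fallen kept their call without each of the 6 WT arrays in turn unless the text says otherwise, which 200 of 317 called genes among those chosen for naming did.

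**Figure D1:**
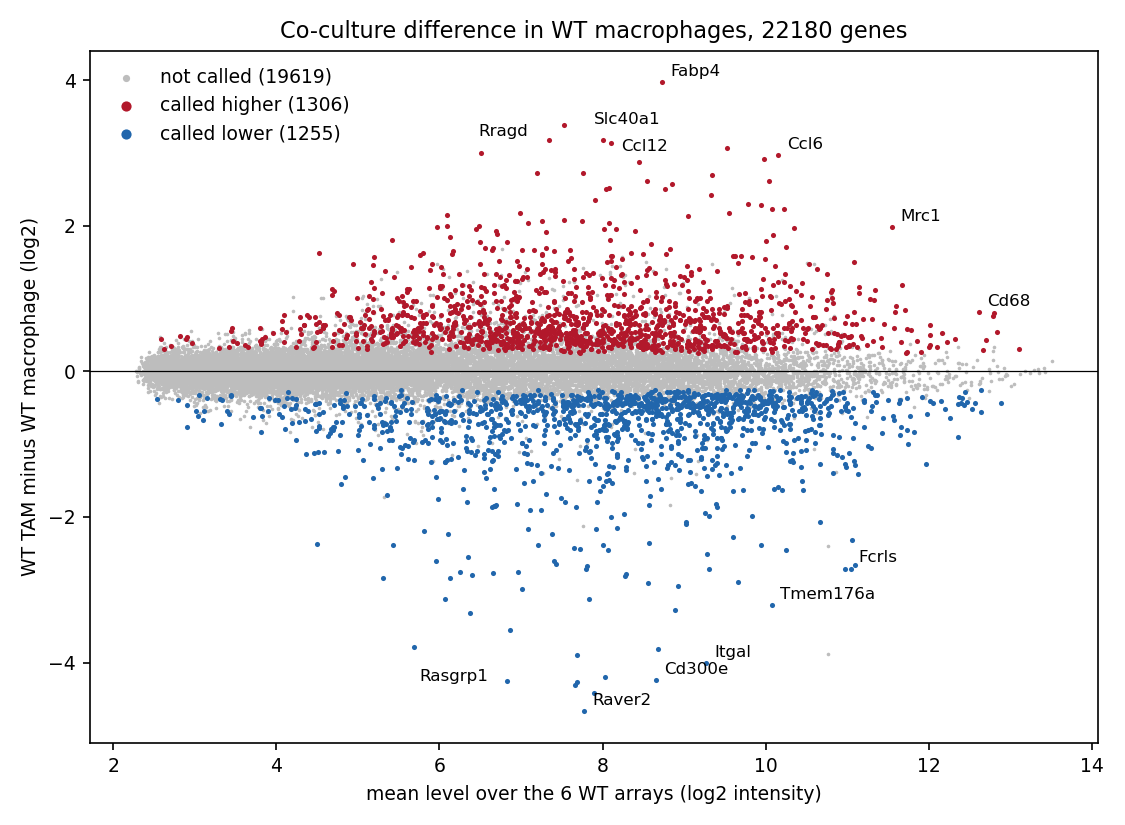
Difference between WT TAMs and WT macrophages (vertical axis, log2) against the mean level over the 6 WT arrays (horizontal axis, log2 intensity), 1 point per gene. Red points are the 1306 genes called higher, blue points the 1255 called lower and grey points the rest; the fallen genes reach -4.67 (Raver2) and the risen genes 3.97 (Fabp4).

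Lysosomal hydrolases, membrane proteins and V-ATPase subunits held the largest shares of risen genes among the lists plotted by share. Lysosomes are acidified by the vacuolar ATPase (V-ATPase), filled with hydrolases and cathepsins, and rimmed by a membrane that exports the digestion products. Of 87 measured genes on 4 lysosomal lists, 44 rose (50.6%, against 5.89% of all genes), 4 fell, and the median difference was 0.43. By list, 17 of 30 lysosomal hydrolases, 12 of 22 membrane and cholesterol export genes, 9 of 17 V-ATPase subunits and 6 of 18 cathepsins and related genes rose. Without single WT arrays these counts stayed at 12 to 19, 10 to 12, 7 to 10 and 5 to 6.

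Several lysosomal enzymes rose evenly on all 3 TAM arrays. Gla, the alpha-galactosidase that degrades glycosphingolipids, read 9.98, 9.91 and 9.87 in macrophages and 11.26, 11.53 and 11.21 in TAMs (1.41 ± 0.11, adjusted p = 2.3e-05). Naglu, an enzyme of heparan sulphate breakdown, read 7.75, 7.91 and 7.91 against 9.41, 9.19 and 9.13 (1.39 ± 0.14, adjusted p = 0.00014). Ctsd, the aspartic protease cathepsin D, read 12.38, 12.45 and 12.35 against 13.22, 13.17 and 13.20 (0.80 ± 0.07, adjusted p = 7.3e-05). The groups did not overlap in any of these. Sgsh, which removes sulphate from heparan, rose by 1.05 ± 0.15, Ctsl by 0.84 ± 0.15 and Ctsh by 0.53 ± 0.10. The 3 fallen genes of the hydrolase list included Acp5, the tartrate-resistant acid phosphatase of osteoclasts (10.51, 10.63 and 10.47 against 7.25, 9.25 and 7.58; -2.51 ± 0.41, adjusted p = 0.0021), and Hgsnat (-1.08 ± 0.16).

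On the lysosomal membrane, Npc1, which passes cholesterol out of the lysosome, read 9.42, 9.32 and 9.25 in macrophages and 10.63, 10.81 and 10.36 in TAMs (1.27 ± 0.16, adjusted p = 0.00041). The cystine exporter Ctns rose by 1.01 ± 0.17, the lysosomal receptor Scarb2 by 1.19 ± 0.21 and the chloride and proton exchanger Clcn7 by 0.83 ± 0.11. Tpcn1, a cation channel of the endolysosome, fell by 0.82 ± 0.10. V-ATPase subunits rose by less, Atp6v1a by 0.65 ± 0.10 and Tcirg1 by 0.50 ± 0.09.

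Among regulators of this compartment, 1 gene had a large change. Rragd encodes a Rag GTPase that places the kinase complex mTORC1 at the lysosome. It read 5.78, 6.04 and 5.47 in macrophages and 9.16, 8.79 and 8.85 in TAMs (3.17 ± 0.22, 8.99-fold, adjusted p = 1.1e-05), with no overlap and the macrophage arrays spread more widely than the TAM arrays. Fnip2, a partner of the RagD regulator folliculin, read 10.28, 10.23 and 10.27 against 11.39, 11.35 and 11.29 (1.09 ± 0.08). Sesn1 and Depdc5, which restrain mTORC1, fell, with differences of -0.64 ± 0.13 and -0.61 ± 0.10. Of the 34 measured mTORC1 and MiT-TFE genes 9 rose (26.5%) and 4 fell (11.8%), and 5 rose without macrophage array 2 or 3. Tfec, a MiT-TFE family factor, differed by 1.45 ± 0.34 (adjusted p = 0.017), a call that ended without any one of the WT arrays but WT TAM 2. In autophagy, 5 of 24 genes rose (20.8%) and none fell, the risen including Atg12 (0.44 ± 0.08) and Uvrag (0.46 ± 0.08). That count was 2 without macrophage array 1 or 3.

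The MiT-TFE factors (TFEB, TFE3, MITF and TFEC) bind the letters TCACGTG, so promoters of lysosomal genes were searched for them on both strands. The sequences searched were the RefSeq promoters of assembly GRCm38.p6, windows of 300 bases that mostly precede each start, which 16918 tested genes had. The letters stood in 102 of 1045 risen genes with a window (9.76%), 54 of 974 fallen genes (5.54%) and 869 of all 16918 (5.14%). Among the lysosomal genes with a window, 11 of 35 that rose (31.4%) and 4 of the other 32 (12.5%) held them. Genes with several windows were counted once, with a match in any, and a match is a description of letters and not of binding. By comparison, the letters GAGGAAG, bound by the myeloid factor PU.1, stood in 16.5% of risen, 20.8% of fallen and 14.9% of all genes, TGACTCA, bound by AP-1, in 5.93%, 5.44% and 5.52%, and TGACNNNGC, the antioxidant response letters, in 17.6%, 16% and 14.9%. Within the lysosomal genes that rose and the other lysosomal genes, the antioxidant letters stood in 9 of 35 (25.7%) and 4 of 32 (12.5%), those of AP-1 in 3 (8.57%) and 1 (3.12%), and those of PU.1 in 5 (14.3%) and 8 (25%). The antioxidant and AP-1 letters, like TCACGTG, had the higher share in the risen lysosomal genes, and these differences between shares were not tested. Windows of 4 risen lysosomal genes are shown 5′ to 3′ on the strand of the gene, with TCACGTG or its reverse complement in capitals. All 4 hold the letters in more than 1 place. Mcoln1, a lysosomal calcium channel, and Ctsa, a lysosomal carboxypeptidase, join Ctsd and Gla.
Ctsd, chr7:142387778-142388077, minus strand: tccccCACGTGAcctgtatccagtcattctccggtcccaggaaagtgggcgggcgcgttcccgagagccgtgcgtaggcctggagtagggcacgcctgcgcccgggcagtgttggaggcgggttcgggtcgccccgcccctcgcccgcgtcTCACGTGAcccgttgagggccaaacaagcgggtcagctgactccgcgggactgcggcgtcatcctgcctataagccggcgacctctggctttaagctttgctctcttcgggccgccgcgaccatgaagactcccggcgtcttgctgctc
Gla, chrX:134600956-134601255, minus strand: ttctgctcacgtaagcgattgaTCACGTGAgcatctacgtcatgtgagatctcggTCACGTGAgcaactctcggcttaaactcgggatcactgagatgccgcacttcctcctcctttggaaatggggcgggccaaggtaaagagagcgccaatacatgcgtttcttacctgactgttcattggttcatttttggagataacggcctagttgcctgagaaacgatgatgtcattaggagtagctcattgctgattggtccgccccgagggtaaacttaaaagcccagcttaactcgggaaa
Mcoln1, chr8:3500269-3500568, plus strand: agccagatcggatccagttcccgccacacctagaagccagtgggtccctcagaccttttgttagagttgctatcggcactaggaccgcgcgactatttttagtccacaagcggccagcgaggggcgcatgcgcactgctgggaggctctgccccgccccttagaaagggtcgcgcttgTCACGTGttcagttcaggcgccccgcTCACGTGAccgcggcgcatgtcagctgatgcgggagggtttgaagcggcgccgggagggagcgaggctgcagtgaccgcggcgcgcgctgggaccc
Ctsa, chr2:164833523-164833822, plus strand: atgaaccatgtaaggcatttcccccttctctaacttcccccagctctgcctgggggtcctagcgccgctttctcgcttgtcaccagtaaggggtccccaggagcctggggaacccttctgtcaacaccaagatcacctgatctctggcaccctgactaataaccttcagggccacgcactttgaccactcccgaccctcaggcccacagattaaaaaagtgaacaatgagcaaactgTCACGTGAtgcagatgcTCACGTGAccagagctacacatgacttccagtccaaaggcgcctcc
Ctsa, whose window holds the letters around the start itself, rose by 0.40 ± 0.08 (11.48, 11.49 and 11.38 against 11.95, 11.77 and 11.85; adjusted p = 0.0064). Mcoln1 rose by 0.49 ± 0.07 (8.63, 8.69 and 8.56 against 9.14, 9.13 and 9.08; adjusted p = 0.0012). Each of the 4 genes lay higher on every TAM array.

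**Figure D2:**
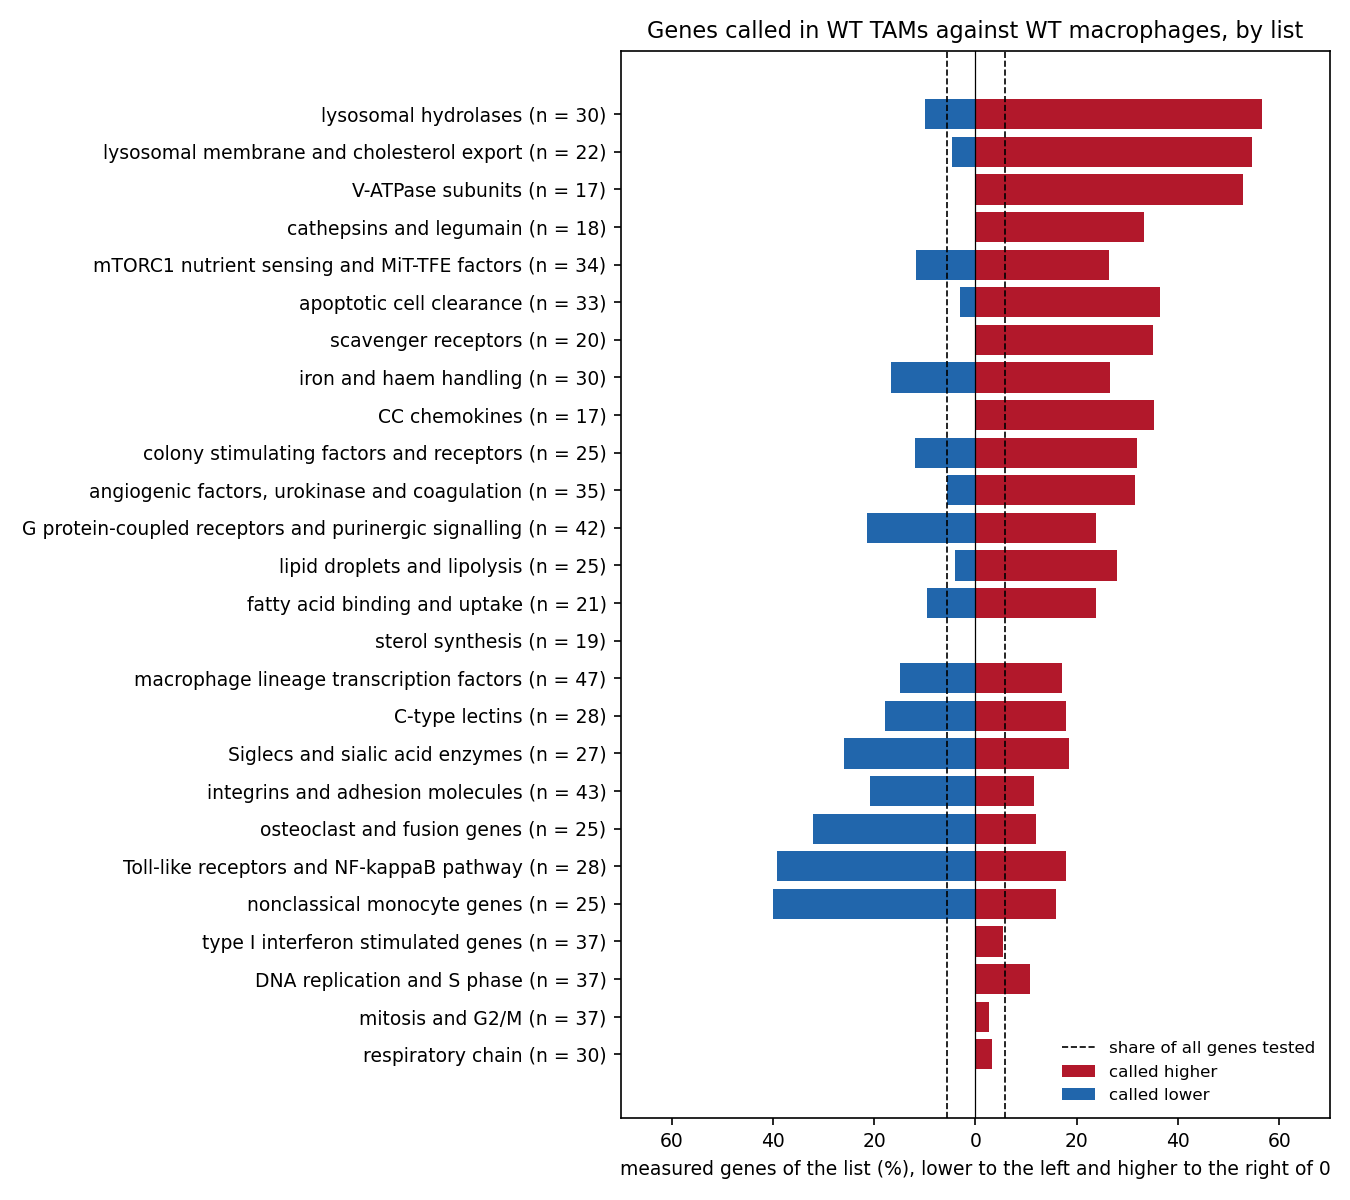
Share of the measured genes of 26 gene lists called higher (red, right) or lower (blue, left) in WT TAMs against WT macrophages, with the number measured beside each name and dashed lines at the share of all tested genes (5.89% higher, 5.66% lower). The lists of lysosomal hydrolases, lysosomal membrane genes and V-ATPase subunits reach furthest to the right, and the nonclassical monocyte and Toll-like receptor lists furthest to the left.

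The 15 largest rises among the genes chosen for naming included Fabp4, Slc40a1, Rragd and 4 CC chemokines. Fabp4, a fatty acid binding protein of fat cells and macrophages, read 6.87, 6.67 and 6.70 in macrophages and 11.68, 9.79 and 10.68 in TAMs (3.97 ± 0.86, 15.7-fold, adjusted p = 0.011). Slc40a1, ferroportin, which exports iron from macrophages, read 6.48, 6.52 and 6.24 against 9.21, 9.94 and 9.61 (3.17 ± 0.26, 9.0-fold, adjusted p = 3.4e-05). In both genes all TAM arrays lay far above all macrophage arrays, and the TAM arrays of Fabp4 differed more among themselves than its macrophage arrays. Hpse, the heparan sulphate cleaving enzyme heparanase, read 8.08, 7.97 and 7.92 against 10.90, 10.43 and 10.76 (2.70 ± 0.21, adjusted p = 2e-05). Ednrb, the endothelin receptor B, read 8.43, 8.65 and 8.50 against 12.15, 10.88 and 11.26 (2.91 ± 0.59, adjusted p = 0.0075). The smallest p belonged to Cd164, a sialomucin of endosomes and the cell surface, at 8.85, 8.99 and 8.92 against 10.36, 10.35 and 10.51 (1.49 ± 0.08, adjusted p = 1.1e-05).

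**Figure D3:**
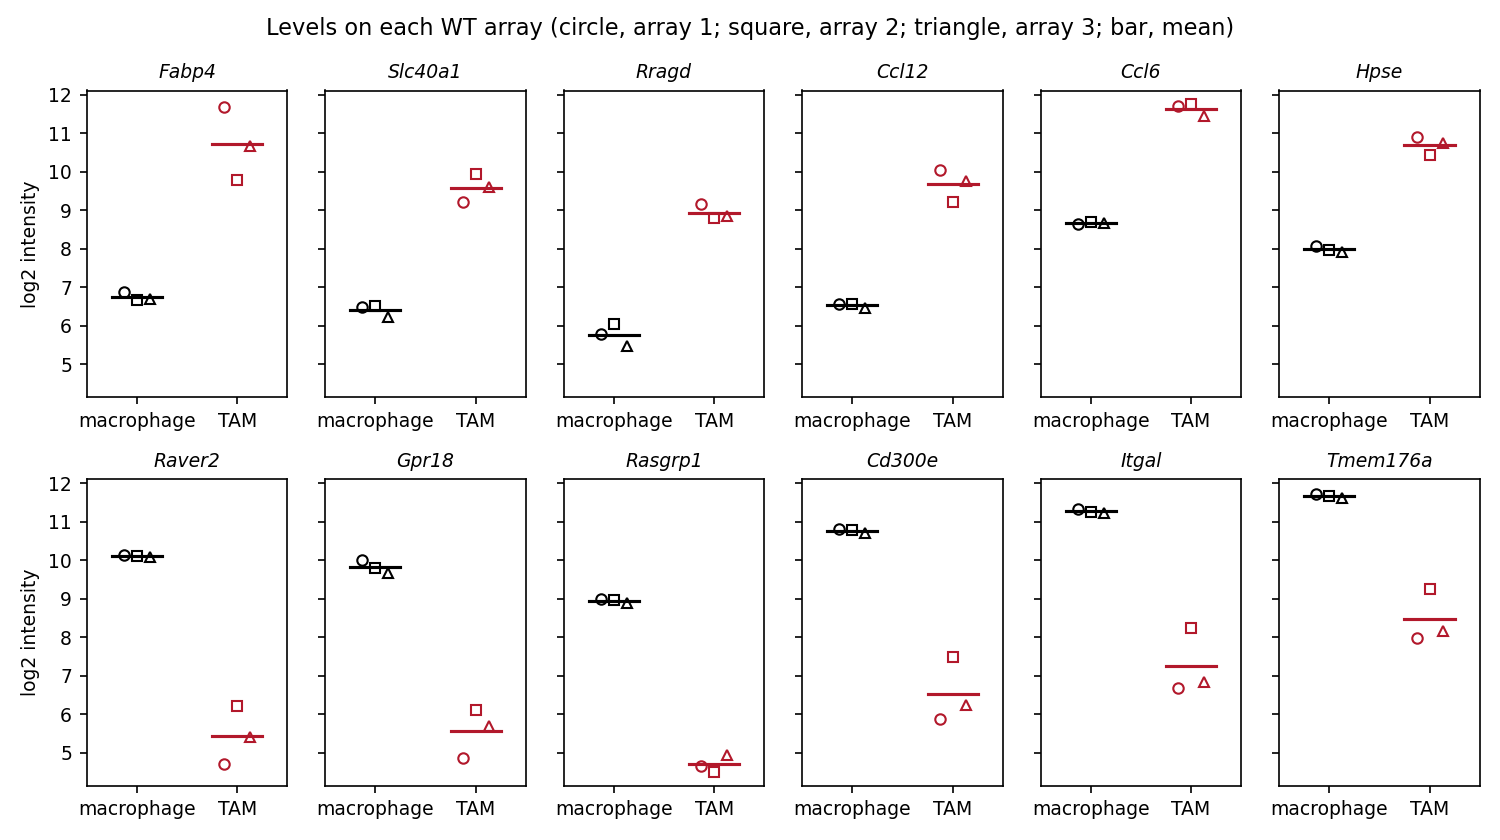
Level (log2 intensity) of 6 genes that rose (upper panels) and 6 that fell (lower panels) on the 3 WT macrophage arrays (black) and 3 WT TAM arrays (red); circles, squares and triangles are arrays 1, 2 and 3 and bars are means. In each panel the groups lie apart, and WT TAM 2 (red square) is the TAM array nearest to the macrophages in Fabp4, Rragd, Ccl12, Hpse, Raver2, Gpr18, Cd300e, Itgal and Tmem176a.

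Of 17 measured CC chemokines, which attract monocytes and other leukocytes, 6 rose (35.3%, against 5.89% of all genes) and none fell, 5 or 6 without any single WT array. The other 11 were not called, and the median difference was 0.09. Ccl12 read 6.56, 6.58 and 6.47 in macrophages and 10.06, 9.21 and 9.75 in TAMs (3.14 ± 0.35, adjusted p = 0.00023), and Ccl7 read 8.54, 8.77 and 8.87 against 11.57, 10.93 and 11.55 (2.62 ± 0.21, adjusted p = 2.3e-05). Ccl2, the main ligand of the monocyte receptor Ccr2, read 9.34, 9.39 and 9.46 against 11.18, 10.90 and 11.22 (1.71 ± 0.18, adjusted p = 0.00018). These genes and Ccl8 (3.0 ± 0.53) belong to 1 chromosomal cluster, in which Ccl11 and Ccl1 differed by 0.20 and 0.13 without a call. Ccl6, from a second cluster, read 8.65, 8.70 and 8.66 against 11.72, 11.75 and 11.46 (2.97 ± 0.20, adjusted p = 1.1e-05). Its neighbours Ccl3 and Ccl4 differed by -0.36 and -0.43 (adjusted p = 0.22 and 0.14). The rise was thus measured in some members of each cluster. The neighbours without a call were named after their values were seen.

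CXC chemokines and chemoattractant receptors moved less uniformly. Pf4, platelet factor 4, rose by 3.07 ± 0.63 (7.94, 8.08 and 7.95 against 11.39, 10.95 and 10.84; adjusted p = 0.008), Cxcl1 rose by 1.34 ± 0.25, and Cxcl9, an interferon gamma induced chemokine, fell by 1.08 ± 0.17. Cxcr4, the receptor of the marrow retention signal Cxcl12, read 7.17, 7.26 and 7.28 in macrophages and 10.44, 9.58 and 9.57 in TAMs (2.62 ± 0.51, adjusted p = 0.0059). S1pr1, a receptor for sphingosine 1-phosphate, read 6.74, 6.94 and 6.78 against 9.34, 9.30 and 9.37 (2.52 ± 0.36, adjusted p = 0.00093). Of these 18 measured receptors 5 rose (27.8%) and 1 fell (5.56%). The fallen one was Fpr2, a formyl peptide receptor, at 9.78, 9.66 and 9.58 against 5.92, 8.20 and 6.48 (-2.81 ± 0.52, adjusted p = 0.0041), with WT TAM 2 nearest to the macrophages. Ccr1 showed a difference of 3.38 ± 0.96 (adjusted p = 0.041), a call that ended without any 1 of the 6 WT arrays.

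Receptors and bridging proteins for dying cells were among the risen genes. Of 33 measured genes of apoptotic cell clearance 12 rose (36.4%, against 5.89% of all genes) 1 fell and 20 were not called, with a median difference of 0.29, and 8 to 11 rose without single WT arrays. Gas6, the bridge between phosphatidylserine and the receptor Mertk, read 8.94, 9.01 and 8.94 in macrophages and 11.53, 10.71 and 11.33 in TAMs (2.23 ± 0.25, adjusted p = 0.00025). Mertk itself read 9.12, 9.22 and 9.29 against 10.32, 10.47 and 10.08 (1.08 ± 0.13, adjusted p = 0.00043). Ligand and receptor thus both rose without overlap. Trem2, a lipid and debris receptor, read 9.03, 9.24 and 9.20 against 10.99, 10.92 and 11.16 (1.87 ± 0.33, adjusted p = 0.0033), and Havcr2 (Tim-3) rose by 1.58 ± 0.16. Elmo1, which links engulfment receptors to Rac, fell by 1.15 ± 0.24. Of 20 scavenger receptors 7 rose (35%) and none fell, and 4 rose without macrophage array 1. Msr1, the class A receptor for modified lipoproteins, rose by 0.99 ± 0.18, and Mrc1, the mannose receptor, by 1.98 ± 0.27 (10.39, 10.63 and 10.67 against 12.85, 12.12 and 12.65; adjusted p = 0.0007). Cd36 did not change detectably (12.10, 12.13 and 12.15 against 12.14, 12.53 and 12.29; 0.19 ± 0.24, adjusted p = 0.71).

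Single genes of fatty acid binding, transport and storage rose. Fabp5 rose by 2.29 ± 0.36 (8.76, 8.89 and 8.76 against 11.53, 10.46 and 11.27; adjusted p = 0.0016), and Slc27a1, a fatty acid transporter, by 0.88 ± 0.08. Nceh1, which releases cholesterol from its esters, read 9.89, 9.92 and 9.91 against 11, 10.93 and 10.94 (1.05 ± 0.08, adjusted p = 1.9e-05), and the droplet coat gene Plin3 rose by 0.71 ± 0.09. Apoe, a carrier of exported cholesterol, rose by 0.86 ± 0.11. Acsl5, which activates fatty acids, fell by 1.12 ± 0.16. Of 21 fatty acid binding and uptake genes 5 rose (23.8%) and 2 fell (9.52%). Of 25 droplet and lipolysis genes 7 rose (28%) and 1 fell (4%). The droplet count was 3 without macrophage array 1. Of 18 fatty acid synthesis genes 3 were called higher (16.7%) and none lower, with 0 to 2 higher without single WT arrays. Plin2, another droplet coat gene, read 10.57, 10.59 and 10.64 against 11.22, 12.43 and 11.38 (1.08 ± 0.24, adjusted p = 0.014), highest on WT TAM 2, a call that ended without macrophage array 1. Pparg, the nuclear receptor that activates Fabp4 and Cd36 in many cells, read 8.15, 8.18 and 8.17 against 8.39, 7.77 and 8.48 and was not called (0.05 ± 0.15, adjusted p = 0.90).

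In iron and haem handling 8 of 30 genes rose (26.7%) and 5 fell (16.7%). Without single WT arrays 6 to 8 rose and 3 to 7 fell. The lowest fallen count came without macrophage array 1, WT TAM 1 or WT TAM 3. Beside Slc40a1, the haem degrading enzyme Hmox1 rose by 0.82 ± 0.17 (10.75, 10.68 and 10.59 against 11.25, 12 and 11.22) and the haem exporter Flvcr1 by 1.0 ± 0.10. Cp, ceruloplasmin, the oxidase that works with ferroportin, fell by 2.89 ± 0.56 (11.15, 11.16 and 11.01 against 7.24, 9.62 and 7.78; adjusted p = 0.006). Spic, a factor known from the iron recycling macrophages of the spleen, differed by -2.15 ± 0.49 (adjusted p = 0.015), a call lost without macrophage array 1, WT TAM 1 or WT TAM 3. Exporter and oxidase of the same pathway thus had opposite calls.

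Secreted growth and matrix factors rose in part. Of 35 angiogenic, urokinase and coagulation genes 11 rose (31.4%) and 2 fell (5.71%), with 7 risen without any 1 of the macrophage arrays. Plau, urokinase, read 7.94, 8.08 and 7.93 in macrophages and 10.18, 9.80 and 10.37 in TAMs (2.13 ± 0.14, adjusted p = 1.1e-05), and its receptor Plaur rose by 1.24 ± 0.26. Pdgfc, a platelet derived growth factor, read 7.40, 7.57 and 7.56 against 10.19, 9.75 and 10.10 (2.5 ± 0.33, adjusted p = 0.00056), and Vegfb rose by 1.17 ± 0.11. Ligand, protease and receptor genes were all among the risen. Vegfa read 8.11, 8.25 and 8.14 against 8.72, 10.64 and 8.63 and was not called (1.16 ± 0.39, adjusted p = 0.083), with WT TAM 2 far above the rest. Of 30 metalloproteinase and inhibitor genes 5 rose (16.7%) and 1 fell (3.33%). Mmp27 rose by 2.42 ± 0.22, Mmp13 by 1.31 ± 0.20 and Adam8 by 1.97 ± 0.28. Mmp9, gelatinase B, fell, at 9.41, 9.43 and 9.35 against 4.99, 8.14 and 5.66 (-3.13 ± 0.57, adjusted p = 0.004). Jag1, a Notch ligand, rose by 1.92 ± 0.29 (5.75, 5.72 and 5.73 against 7.33, 8.29 and 7.36; adjusted p = 0.0013).

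Of 25 colony stimulating factor and cytokine receptor genes 8 rose (32%), 3 fell (12%) and 14 were not called, with 5 risen without any one of the macrophage arrays or WT TAM 3. Il7r, the interleukin 7 receptor, read 9.03, 9.08 and 9.22 in macrophages and 11.35, 11.45 and 11.23 in TAMs (2.23 ± 0.37, adjusted p = 0.0022). Il21r rose by 1.67 ± 0.27 and Il6st, the gp130 subunit shared by receptors of the interleukin 6 family, by 1.38 ± 0.28. Csf1r, the receptor for the macrophage growth factor, read 11.37, 11.44 and 11.41 against 11.68, 11.38 and 11.69 (0.17 ± 0.19, adjusted p = 0.66). Cytokine genes themselves moved both ways, with 4 of 30 risen (13.3%, against 5.89% of all genes) and 5 fallen (16.7%, against 5.66%). Only 1 rose without macrophage array 3, and 2 fell without macrophage array 1, 2 or 3. Il1b fell by 1.86 ± 0.34 (8.84, 8.39 and 8.57 against 7.01, 6.59 and 6.61; adjusted p = 0.0039). Il6 (-0.12 ± 0.46, adjusted p = 0.92) and Tnf (-1.07 ± 0.50, adjusted p = 0.22) were not called, nor were the activation genes Arg1 (0.47 ± 0.28, adjusted p = 0.35) and Nos2 (0.26 ± 0.15, adjusted p = 0.37).

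Of 28 Toll-like receptor and NF-kappaB genes 11 fell (39.3%, against 5.66% of all genes) and 5 rose, with a median of -0.25 and 9 to 10 fallen without single WT arrays. Nfkbiz, an atypical NF-kappaB inhibitor, read 11.03, 11.01 and 11.01 in macrophages and 9.64, 9.23 and 9.30 in TAMs (-1.63 ± 0.19, adjusted p = 0.0003). The adaptor Ticam2 fell by 1.29 ± 0.15, the receptor Tlr1 by 1.31 ± 0.25 and the inhibitory kinase Irak3 by 1.23 ± 0.21. Activating and inhibitory members thus fell side by side, whereas Tlr13, which senses bacterial ribosomal RNA, rose from 10.32, 10.30 and 10.31 to 11.34, 11.30 and 11.30 (1.0 ± 0.09, adjusted p = 8.6e-05).

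Several exchange factors of intracellular signalling also fell. Rasgrp1, an exchange factor that activates Ras, read 8.99, 8.98 and 8.89 against 4.66, 4.51 and 4.94 (-4.25 ± 0.54, 19.0-fold, adjusted p = 0.00048). It was among the few large falls with all 3 TAM arrays close together. Sos1, a further Ras exchange factor, read 10.82, 10.87 and 10.78 against 8.77, 8.92 and 8.82 (-1.99 ± 0.18, adjusted p = 7e-05). Rasgrp4 fell by 1.34 ± 0.11 and Arhgef6, an exchange factor for Rac, by 1.33 ± 0.11. Dok3, an adaptor that dampens immune receptor signals, fell by 1.30 ± 0.14.

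The largest falls included Raver2, Gpr18 and several surface proteins of monocytes. Raver2, an RNA binding protein, read 10.13, 10.11 and 10.09 in macrophages and 4.71, 6.22 and 5.40 in TAMs (-4.67 ± 0.95, 25.4-fold, adjusted p = 0.0078). Gpr18, a G protein-coupled receptor, read 10.01, 9.79 and 9.68 against 4.86, 6.12 and 5.69 (-4.27 ± 0.61, adjusted p = 0.00095). Cd300e, an activating receptor of monocytes, read 10.82, 10.78 and 10.71 against 5.88, 7.48 and 6.24 (-4.24 ± 0.82, adjusted p = 0.0058). In all 3 genes the macrophage arrays lay close together and WT TAM 2 was the highest TAM array. Itgal, the alpha subunit of the integrin LFA-1, fell by 4.01 ± 0.85 (11.33, 11.25 and 11.23 against 6.69, 8.25 and 6.84; adjusted p = 0.0094). Spn (CD43), a sialomucin of the leukocyte surface, read 9.08, 8.97 and 8.77 against 6.44, 6.23 and 6.85 (-2.44 ± 0.16, adjusted p = 1.1e-05). Of 25 genes known from nonclassical monocytes 10 fell (40.0%, against 5.66% of all genes) and 4 rose (16%, against 5.89%). Without single WT arrays 7 to 9 fell. Ly6c2, a classical monocyte gene, rose by 1.10 ± 0.21 at a low level (4.41, 4.14 and 3.95 against 5.01, 5.08 and 5.68). Ccr2 (0.07), Cx3cr1 (-0.18), Ace and Nr4a1 were not called.

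Of 43 integrins and adhesion molecules 9 fell (20.9%, against 5.66% of all genes) and 5 rose (11.6%, against 5.89%), with a median of -0.03, 7 to 10 fallen without single WT arrays and 2 risen without macrophage array 1. Pecam1, an adhesion molecule of endothelium and leukocytes, read 8.52, 8.34 and 8.33 against 5.49, 6.59 and 5.96 (-2.38 ± 0.31, adjusted p = 0.0006), and Itga9 fell by 1.71 ± 0.19. Of 25 osteoclast and fusion genes 8 fell (32%) and 3 rose (12%), 7 to 10 and 3 without single WT arrays. Dcstamp, needed for the fusion of osteoclast precursors, read 6.09, 5.99 and 5.82 against 4.47, 4.89 and 4.50 (-1.34 ± 0.13, adjusted p = 8.2e-05), and its partner Ocstamp fell by 0.97 ± 0.17. Both fusion genes thus lay lower on every TAM array. Cmah, which makes the sialic acid Neu5Gc, fell by 2.16 ± 0.25, and Npl, which cleaves sialic acid, rose by 1.81 ± 0.27. Of 27 Siglec and sialic acid genes 7 fell (25.9%) and 5 rose (18.5%). Without single WT arrays as few as 4 fell (macrophage arrays 2 or 3) and 2 rose (macrophage array 1 or WT TAM 3).

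Transcription factors of the macrophage lineage moved both ways, with 8 of 47 risen (17%) and 7 fallen (14.9%), and 3 risen without macrophage array 2 or 3. Bhlhe41, a repressor known from self-renewing tissue macrophages, read 6.53, 6.88 and 6.72 in macrophages and 8.72, 8.81 and 8.80 in TAMs (2.06 ± 0.13, adjusted p = 1.1e-05). Spi1, which encodes PU.1, read 10.92, 10.90 and 10.96 against 10.20, 9.95 and 10.20 (-0.81 ± 0.08, adjusted p = 0.00016). The 2 factors moved in opposite directions without overlap. Batf3 fell by 1.45 ± 0.26, Pou2f2 by 1.20 ± 0.20 and Cebpd by 1.11 ± 0.14. The corepressor Tle1 fell by 2.38 ± 0.16 (6.70, 6.75 and 6.41 against 4.07, 4.27 and 4.38).

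Genes called in the same direction lay next to each other on chromosomes more often than the share of all genes. The next tested gene in the order of the RefSeq table was also called higher for 144 of 1302 risen genes (11.1%, against 5.93% of genes with a position) and also lower for 169 of 1248 fallen genes (13.5%, against 5.68%). It was called the opposite way for 3.76% and 4.49%. Runs of at least 4 were named after their values were seen. On chromosome 6, the C-type lectin genes Clec4a1, Clec4a3, Clec4a4, Clec4b1 and Clec4a2 stand in that order and all fell, with differences of -0.64, -1.05, -2.55, -2.76 and -1.39. Clec4a4, for example, read 7.69, 7.56 and 7.63 in macrophages and 5.28, 4.62 and 5.33 in TAMs (adjusted p = 1.1e-05). Further along the same cluster Clec4b2 was not called (-0.26), and Clec4n (Dectin-2) and Clec4d rose by 1.59 ± 0.25 and 0.94 ± 0.16. The direction thus turned inside the cluster.

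A second run, on chromosome 17, held Treml2, Trem2 and Treml1, which rose by 0.86 ± 0.12, 1.87 ± 0.33 and 0.79 ± 0.11, with the unnamed transcript B430306N03Rik among them. The nearby Treml4 fell by 1.08 ± 0.15 (7.13, 7.08 and 7.21 against 6.01, 6.44 and 5.73), and Trem1, an amplifier of inflammation, was not called (0.09, adjusted p = 0.86). On chromosome 3 the signal regulatory genes Gm9733, Sirpb1a, Sirpb1c and Gm5150 fell, with differences of -1.55, -1.63, -2.0 and -2.95. These are near-identical copies, so their probe sets may read each other's transcripts. Also on chromosome 3, the purinergic receptors P2ry13 and P2ry12 rose by 1.89 ± 0.35 and 1.28 ± 0.22 (P2ry12: 7.42, 7.40 and 7.23 against 8.91, 8.20 and 8.79). On chromosome 6 the membrane protein genes Tmem176a and Tmem176b stand side by side and fell, with differences of -3.21 ± 0.45 and -2.71 ± 0.35 (Tmem176a: 11.73, 11.68 and 11.63 against 7.98, 9.26 and 8.17).

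Some lists showed little or depended on WT TAM 2. Of 30 respiratory chain genes 1 rose and none fell, and of 37 type I interferon stimulated genes 2 rose and none fell, shares below or near those of all genes. None of 14 S100 genes and none of 19 sterol synthesis genes was called by limma, with 4 and 0 at an unadjusted p under 0.05. The sterol genes were split by array: Cyp51 read 9.16, 9.29 and 9.38 in macrophages and 10.16, 6.56 and 9.83 in TAMs, and Fdps read 8.73, 8.79 and 8.78 against 9.78, 6.53 and 9.57. TAM arrays 1 and 3 lay above the macrophages and array 2 below them. The list's median difference was 0.05, and from -0.36 to 0.67 without single WT arrays. The 37 mitosis genes averaged 8.90, 8.02 and 9.10 on TAM arrays against 8.33 to 8.38 on macrophage arrays. Of these 1 was called higher, 12 without WT TAM 2 and 0 without any other single WT array. Of 37 S phase genes 4 were called higher, 17 without WT TAM 2 and 1 or 2 without any other single WT array.

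**Figure D4:**
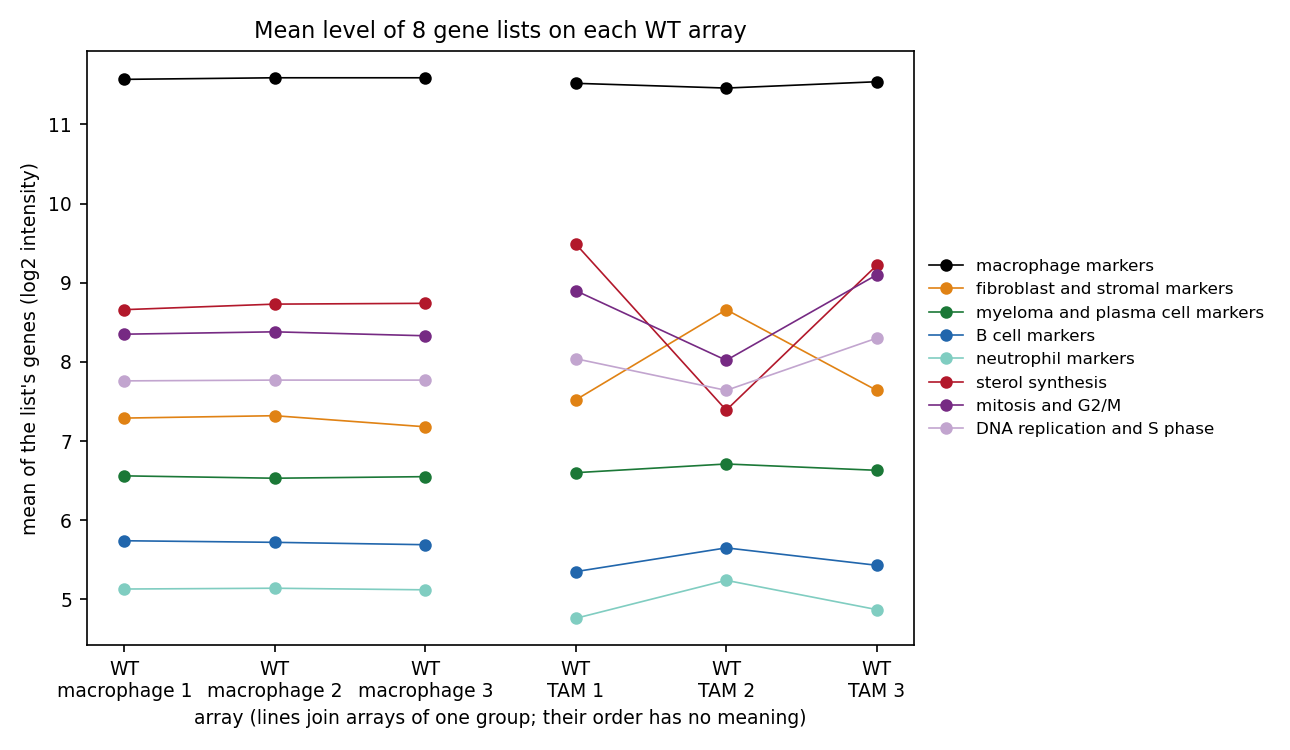
Mean level (log2 intensity) of the measured genes of 8 lists on each of the 6 WT arrays; lines join arrays of one group only. WT TAM 2 has the highest fibroblast and stromal mean (8.66) and the lowest sterol synthesis (7.39) and mitosis (8.02) means. The macrophage marker mean lies between 11.46 and 11.59, with 3 of its 15 genes called higher and 4 lower.

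Several marker lists of other cells held called genes, where 5.89% of all genes were called higher and 5.66% lower. Of 19 fibroblast and stromal markers 2, Col1a2 and Col3a1, were called higher (10.5%), 0 to 1 without single WT arrays, with a median of 0.83. Col1a1, the main fibrillar collagen chain, read 8.54, 8.62 and 8.64 in macrophages and 9.51, 10.88 and 9.83 in TAMs (1.47 ± 0.47, adjusted p = 0.069). Collagens and Acta2 (9.87, 10.02 and 9.68 against 10.82, 11.96 and 11.22) lay higher on all TAM arrays and highest on WT TAM 2. The part of stromal RNA in any gene above was not tested. Of 15 B cell markers 4 fell (26.7%) and none rose, with 1 fallen without macrophage array 2. Of 22 T and NK cell markers 2 rose (9.09%), Cd28 (2.03 ± 0.31) and Cd4. The latter lost its call without any one of the WT arrays but WT TAM 2 (adjusted p up to 0.12). Of 18 neutrophil markers 2 fell (11.1%) and none rose. These were Csf3r, which lost its call without any one of the macrophage arrays or WT TAM 3, and Mmp9. Of 14 endothelial markers 3 were called higher (21.4%) and 1 lower (7.14%), with a median of 0.04. Kdr, a receptor for vascular endothelial growth factor, rose by 2.0 ± 0.34, Pecam1 fell, and Vwf (0.96 ± 0.25) and Eng (0.86 ± 0.24) each lost their call without any one of the WT arrays but WT TAM 2. Endothelial means were 5.06 to 5.15 on macrophage arrays and 5.14 to 5.27 on TAM arrays. Of 17 dendritic cell markers 2 were called lower (11.8%), and of 15 mast cell, basophil and eosinophil markers 1 (6.67%). Of 9 erythroid and megakaryocyte markers 1 was called higher (Pf4, 11.1%) and 1 lower (11.1%).

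The second co-culture comparison, in KO cells, called 1449 genes (6.53%), 643 higher (2.90%) and 806 lower (3.63%). Of the genes that rose in WT cells 404 also rose in KO cells (30.9% of the WT list and 62.8% of the KO list), and of those that fell 487 also fell (38.8% and 60.4%). The KO difference had the same sign for 90.7% of risen and 91.6% of fallen genes, where 47.1% of all genes lay above 0 and 52.9% below 0 in KO cells. The KO arrays moved the same way without overlap for 819 (62.7%) and 919 (73.2%) of them, against 11.7% and 14.6% of all genes. Sizes were smaller, with medians of 0.33 and -0.37 in KO cells beside 0.60 and -0.58 in WT cells, which chose the genes. Across all genes the 2 differences correlated at r = 0.68, as a description over genes that are not independent. Besides genotype, the arrays differed in sex-linked genes: Xist read 11.08 to 11.32 on WT arrays and 3.91 to 4.35 on KO arrays, so genotype and sex cannot be told apart in any comparison between them. The macrophages without myeloma cells differed too. Fibroblast and stromal markers averaged 7.18 to 7.32 on WT and 5.68 to 5.79 on KO macrophage arrays, and mitosis genes 8.33 to 8.38 and 6.97 to 7.06. The part of these differences in the comparison of WT and KO cells was not tested.

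Several of the genes named above were called in both. Slc40a1 rose by 3.41 in KO cells, Fabp4 by 4.30, Rragd by 2.29, Ccl6 by 2.36 and Hpse by 3.05, and Rasgrp1 fell by 2.40. Of the 87 lysosomal genes 26 rose and 1 fell in KO cells, 23 of them the same genes as in WT cells, with a median of 0.27. The large WT falls were not all called in KO cells: Raver2 differed there by -2.5 (adjusted p = 0.16), Cd300e by -2.41 (adjusted p = 0.11) and Itgal by -1.95 (adjusted p = 0.22). The test of the KO minus WT difference did not call these genes, so a difference between genotypes is not shown for them. The KO TAM arrays also differed among themselves. KO TAM 1, 2 and 3 lay more than 1 from the mean of the other 2 in 550, 88 and 303 genes, which limits what the KO comparison can call.

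That test called 43 genes (0.194%), 37 of which had a call in WT cells. Without single arrays the count of 43 ranged from 14 to 444, the highest without KO TAM 1. The WT difference was the larger in size for 30 of the 37 and the KO difference for 7, and 14 had the opposite sign in KO cells. Of the 37, 12 kept the call without each of the 12 arrays in turn. Shisa3, an inhibitor of Wnt and growth factor signals, read 7.12, 7.40 and 7.27 in WT macrophages, 4.55, 4.57 and 4.85 in WT TAMs, 5.21, 5.14 and 5.42 in KO macrophages and 4.55, 5.00 and 5.23 in KO TAMs (KO minus WT 2.28 ± 0.23, adjusted p = 0.0037). Uchl1, a ubiquitin hydrolase, read 7.62, 7.63 and 7.46, then 5.71, 5.77 and 5.65, and in KO cells 5.45, 4.91 and 5.5, then 5.47, 5.41 and 5.64 (2.08 ± 0.20, adjusted p = 0.0037). The nonclassical MHC gene H2-M2 fell by 2.43 ± 0.21 in WT cells from 8.69, 8.67 and 9.23, while KO macrophages read 5.39, 5.10 and 5.04 before and 5.85, 5.40 and 5.13 after co-culture. In these genes the KO macrophages without myeloma cells already lay nearer to the WT TAMs than to the WT macrophages. Levels this low leave little room for a fall in KO cells, and the part of this limit in the KO minus WT difference was not tested. Clec4a3, by contrast, was high in KO cells before and after (11.94 to 12.05 and 11.94 to 12.06) and fell in WT cells from 11.77 to 11.86 to 10.59 to 10.91 (KO minus WT 1.07 ± 0.13, adjusted p = 0.0078).

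**Figure D5:**
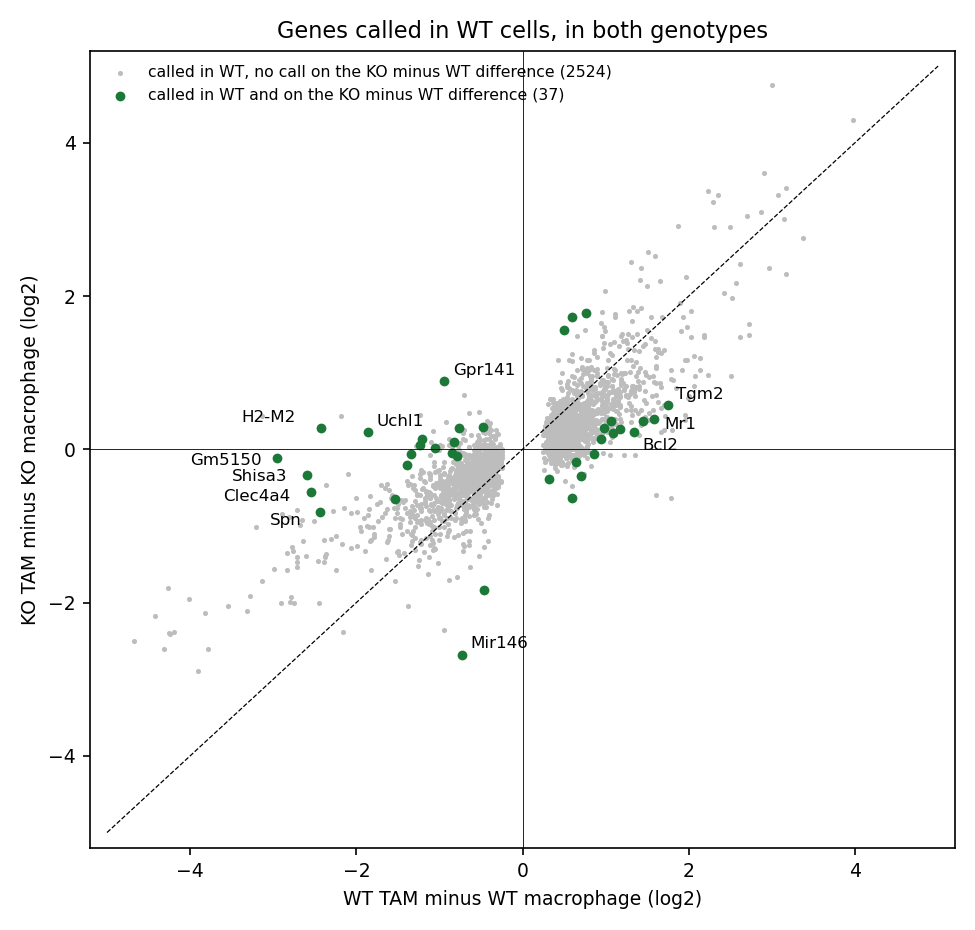
KO co-culture difference (vertical axis, log2) against WT co-culture difference (horizontal axis, log2) for the 2561 genes called in WT cells; the dashed line marks equal differences. Green points are the 37 genes also called on the KO minus WT difference, most of them nearer to 0 in KO cells than in WT cells.

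Mr1, which presents vitamin metabolites to T cells, rose by 1.58 ± 0.11 in WT cells (8.75, 8.80 and 8.88 against 10.43, 10.42 and 10.31) and by 0.40 in KO cells, where macrophages already read 10.15 to 10.21 (KO minus WT -1.18 ± 0.15, adjusted p = 0.0097). Opposite calls in the 2 genotypes were found for 4 genes, named after their values were seen. Ankrd28, Mir27a and Sccpdh rose in WT cells (0.70, 0.60 and 0.32) and fell in KO cells (-0.35, -0.63 and -0.39), and Gpr141 fell in WT (-0.94) and rose in KO cells (0.89). The test of the difference lost its call without 9 of the 12 arrays for Sccpdh and Gpr141 and without none for Ankrd28 and Mir27a. The WT call ended without any one of the 6 WT arrays for Sccpdh and without macrophage array 2, WT TAM 1 or WT TAM 3 for Gpr141.

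The microRNA loci Mir27a and Mir146 were among the genes with a call on that test, and their mature arms are shown 5′ to 3′ with the seed, bases 2 to 8, in capitals, since the seed sets which transcripts a microRNA can pair with. The sequences are from RefSeq with assembly GRCm38.p6. The 4 arms have 4 different seeds, and the probe sets read the locus and do not tell the arms apart.
mmu-miR-27a-5p: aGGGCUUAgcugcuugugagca
mmu-miR-27a-3p: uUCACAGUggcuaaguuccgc
mmu-miR-146a-3p: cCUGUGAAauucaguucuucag
mmu-miR-146a-5p: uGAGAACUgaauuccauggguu
Mir27a read 6.52, 6.41 and 6.38 in WT macrophages and 7.07, 7.04 and 6.99 in WT TAMs (0.60 ± 0.11, adjusted p = 0.0035), and 7.48 to 7.5 in KO macrophages against 6.58 to 7.03 in KO TAMs. Mir146, the locus of miR-146a, a microRNA known to restrain Toll-like receptor signals, read 3.66, 3.89 and 3.51 against 2.56, 3.35 and 2.95 in WT cells (-0.73 ± 0.18, adjusted p = 0.020, lost without macrophage array 1 or 2, WT TAM 1 or WT TAM 3) and 5.74 to 6.16 against 3.23 to 3.40 in KO cells (-2.68, adjusted p = 1.4e-05). The low level in WT macrophages limits the fall that could be read there.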

How the data were processed

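The authors deposited 1 table with an intensity value for every probe set on every array, made with RMA per the submitters' processing notes, which also name limma. RMA equalises the arrays' distributions and so hides a shift common to the transcriptome. Values were on the linear scale as deposited, and log2 was taken with no pseudocount. Of 41345 probe sets 23521 had 1 gene symbol, 1814 several and 16010 none, and only those with 1 symbol were used. For 1082 genes with several probe sets the one with the highest mean was kept, which gave 22180 genes with no filter on level. limma 3.58.1 in R 4.3.3 (lmFit, eBayes) fitted 4 group means over all 12 arrays (8 residual degrees of freedom), with Benjamini-Hochberg adjustment. Group and replicate came from sample titles. The fit was tested on simulated data. The lists, the promoter letters and the rule for named genes were chosen with earlier results of these data known. The rule took the 15 largest rises and falls, the 10 smallest p, up to 6 called members per list, fixed macrophage genes, 8 genes with a KO minus WT call, 8 outlying on WT TAM 2 and 3 per marker list. Genes and promoters were matched by Entrez identifier and symbol to RefSeq tables (GRCm38.p6); 23328 probe sets matched. Alternatives were the 6 arrays of a genotype alone, renormalization, a level filter, mean probe sets, a replicate block, array weights, a variance trend, a fold threshold and leaving out each array. Figures were drawn with matplotlib 3.10.9.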

Additional observations from a re-analysis of the deposited data

Results flagged for a closer look

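Named genes whose co-culture difference was itself different between KO and WT cells by the limma test, given as KO minus WT, were Gm5150 (2.83), H2-M2 (2.72), Shisa3 (2.28), Uchl1 (2.08), Clec4a4 (1.99), Gpr141 (1.83), Spn (1.61), Dcstamp (1.28), Clec4a3 (1.07), Ifitm3 (1.05) and Aldh6a1 (0.90) above 0. Below 0 were Mir146 (-1.95), Mr1 (-1.18), Tgm2 (-1.17), Bcl2 (-1.11), Vegfb (-0.91) and Fnip2 (-0.87). The call was lost without at least 1 of the 12 arrays for Gpr141, Spn, Dcstamp, Ifitm3, Aldh6a1, Tgm2, Bcl2, Vegfb and Fnip2. Genotype cannot be told apart in these values from the differences in sex-linked genes and in the stromal and mitosis list means. Low levels in KO macrophages, as for H2-M2, Shisa3, Uchl1 and Dcstamp, leave little room for a fall in KO cells.

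Among the genes chosen for naming, 6 more had all WT TAM arrays below, and all KO TAM arrays above, the macrophage arrays of their genotype. For these the limma test of the difference did not pass its threshold. The pattern was not counted over all genes, so no background share stands beside the 6. Outside the naming rule, Ccl4 (0.97, adjusted p = 0.17) and Ccl5 (2.12, adjusted p = 0.24) showed it too. Of the 6, the KO minus WT difference was 3.6 for Mmp9, where KO macrophages read 4.93 to 5.47 and WT macrophages 9.35 to 9.43 (adjusted p = 0.12). Mmp9 read 5.53, 5.87 and 5.47 in KO TAMs, so its KO groups met at 5.47 as rounded. Its KO difference was 0.44 (limma adjusted p = 0.74). The KO minus WT difference was 1.0 for Cd274 (PD-L1, adjusted p = 0.098), 0.74 for Ciita (adjusted p = 0.11), 0.72 for Fcgr4 (adjusted p = 0.063), 0.66 for Pltp (adjusted p = 0.22) and 0.48 for Lyz2 (adjusted p = 0.14).

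Outside the genes tested, 17824 probe sets with several symbols or none showed a co-culture difference in WT cells for 4.39% of them (256 higher and 526 lower at a limma adjusted p under 0.05).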

How the results depend on the processing

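The count of called genes in WT cells lay between 2417 and 2972 with the 6 WT arrays alone, either renormalization, the level filter, mean probe sets, the replicate block or the variance trend. The array weights were lowest for KO TAM 1 (0.266) and WT TAM 2 (0.329). With them the count in WT cells was 3976 (2144 higher), and with a 2-fold threshold 511 (253 higher, 258 lower). Without single arrays it ranged from 1475 to 2671 (688 to 1417 higher, 787 to 1254 lower). Median centring changed the share of calls that were higher from 51.0% to 46.1%. The KO count of 1449 was 505 with the 6 KO arrays alone, 2705 with array weights, 290 with a 2-fold threshold and 611 to 1659 without single arrays. The count called the same way in both genotypes, 891, was 1482 with array weights, 150 with a 2-fold threshold and 418 to 1082 without single arrays. The 43 genes called on the KO minus WT difference were 100 above the median level, 761 with array weights, 73 with the variance trend and 14 to 444 without single arrays. Cxcl5, not called with all arrays (0.14), turned to -0.81 without WT TAM 2 (limma adjusted p = 0.024) and was 0.66 without WT TAM 1.

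Same-numbered arrays of the 2 cultures did not deviate together across all genes (correlations of -0.03, 0.02 and 0.01 in WT and 0, 0.01 and 0.01 in KO cells). This cannot exclude a pairing, because macrophage arrays differed little among themselves (WT r = 0.996 to 0.997). The labels state none. With the replicate number as a block, 2423 genes were called in WT cells and 26 on the KO minus WT difference, and 9 of 317 called named genes lost their call. Of the 317, 199 kept it under each alternative that could be fitted, other than the 2-fold threshold and leaving out KO arrays. Those 2 were not applied to single genes. List medians moved by less than the SD of the list's median level over the 3 WT TAM arrays in 959 pairs of list and setting and by more in 63. That limit includes WT TAM 2, so it is wide for lists such as sterol synthesis, with means of 9.49, 7.39 and 9.22 on TAM arrays. The level of a gene near the arrays' floor limits what a fall can show.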

Other observations

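Gene groups not described above held further single changes in WT cells. Herpud1, a gene of the unfolded protein response, fell by 1.59 ± 0.26 (10.98, 10.98 and 10.88 in macrophages, 9.36, 9.40 and 9.32 in TAMs; limma adjusted p = 0.0021). Among apoptosis regulators Bcl2, which protects cells from death, rose by 1.34 ± 0.11 (7.65, 7.58 and 7.48 against 8.71, 8.89 and 9.12; adjusted p = 2.5e-05), and Birc3 fell by 1.05 ± 0.16. In the hypoxia list 6 of 21 genes rose (28.6%, against 5.89% of all genes) and 1 fell, and the list's mean was 7.96 on WT TAM 2, 7.38 and 7.29 on the other TAM arrays and 7.17 to 7.18 on macrophage arrays. The collagen hydroxylase P4ha1 rose by 0.95 ± 0.12, while Ndrg1 fell by 2.66 ± 0.42 (12.47, 12.44 and 12.36 against 9.83, 10.21 and 9.25; adjusted p = 0.0019). Tent5c, also a plasma cell gene, rose by 1.84 ± 0.28 (5.31, 5.11 and 5.21 against 7.35, 6.56 and 7.25; adjusted p = 0.0013), with Jchain at 3.48 to 3.75 on the same TAM arrays.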
